A study of Danio rerio with 2 samples.

Results

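The cells described here are barcodes of the regenerating zebrafish heart that carried transcripts of mitotic genes. Barcodes of both libraries were taken if over 300 genes were detected and no more than 70% of UMIs lay in mitochondrial genes. Cells were then chosen by the counts of 8 mitotic genes: at least 2 different genes among mki67, top2a, cdk1, ccna2, ccnb1, aurkb, birc5a and ube2c had to be detected. There were 326 such barcodes among 10763, of which 181 came from the mutant library and 145 from the wild-type library. They are called cycling barcodes below, a name that stands for this rule and for no other measure of division. They are compared with the 9581 barcodes that held none of the 8 genes, called negative barcodes, and 856 barcodes held exactly 1 of the 8.

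The study asked how antigen presentation through MHC class II bears on cardiac regeneration, and compared fish with mutations in both genes of the MHC class II chaperone, cd74a and cd74b, with wild types. The mutant library came from cd74a;cd74b double mutants (alleles bns454 and bns456, made with CRISPR-Cas9), and the wild-type library from fish without these alleles. Both used adults of the AB strain aged 3 to 12 months. Border zone and injured tissue of 4 ventricles, from 2 females and 2 males, was pooled per library at 120 hours post-cryoinjury (hpci). With 1 library per genotype, genotype, pool of fish and library preparation cannot be told apart, so no test between genotypes was made. Every interval below covers counting error only. The cells were dissociated enzymatically and depleted of dead cells.

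A cell that divides first doubles its DNA in S phase and then separates the copies in mitosis. Transcripts of the mitotic machinery are made mostly in G2 and M phase and are largely lost in resting cells, which is why genes such as mki67 serve as markers of division. Of the 8 genes used here, cdk1 encodes the mitotic kinase, and ccna2 and ccnb1 encode the cyclins that activate it. The products of aurkb and birc5a belong to the chromosomal passenger complex, Top2a untangles DNA, Mki67 coats mitotic chromosomes, and Ube2c feeds the anaphase-promoting complex. In the cryoinjured zebrafish heart, division is known in cardiomyocytes at the border zone, endocardial cells, epicardial cells, fibroblasts and macrophages. Protein roles given here are known mostly from mammalian cells.

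Cycling barcodes made up 2.52% of mutant barcodes (181 of 7174, 95% Clopper-Pearson interval 2.17 to 2.91) and 4.04% of wild-type barcodes (145 of 3589, 3.42 to 4.74). The ratio of these shares was 0.624 (0.504 to 0.774 by counting alone). The ratio depended on the barcodes admitted: with more than 500 genes per barcode the shares were 7.49% in the mutant library (120 of 1603) and 7.41% in the wild-type library (104 of 1404), a ratio of 1.01. Depth was then unequal, with a median of 2377 non-mitochondrial UMIs in the mutant and 1998.5 in the wild-type library. Detection of 2 genes depends on depth, and with every barcode thinned to 1000 UMIs of non-mitochondrial genes the expected shares were 1.88% in the mutant and 2.79% in the wild-type library. Thinning left out 3346 mutant and 1526 wild-type barcodes as too shallow, and before thinning the barcodes that remained held 4.00% cycling barcodes in the mutant and 5.72% in the wild-type library. The clusters that received no name from the marker lists held 1998 mutant but 42 wild-type barcodes. Without them the shares were 3.03% in the mutant library (2.58 to 3.54) and 4.06% in the wild-type library (3.43 to 4.76), and these intervals overlapped as well.

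Cycling barcodes were deeper than negative ones. They held a median of 2082 non-mitochondrial UMIs in the mutant library, against 1033.5 in negative barcodes, and 2097 in the wild-type library, against 1088. Their median number of detected genes was 604 against 387 in the mutant library and 731 against 442 in the wild-type library. Their mitochondrial share was lower, at 11.6% against 22.6% in the mutant and 10.1% against 15.3% in the wild-type library. In the top 5% of all barcodes by UMIs were 42 of the 181 mutant and 35 of the 145 wild-type cycling barcodes. A pair of fibroblast-like barcodes with 35040 and 24988 UMIs gave 8.28% and 5.91% of all UMIs in wild-type cycling barcodes, and some values below are also given without them. The libraries shared 15 barcode sequences, 7 of them among the barcodes kept and 1 among the cycling ones. Of the barcodes removed by the filter, 13 of 7968 mutant (0.163%) and 2 of 1018 wild-type ones (0.196%) held at least 2 of the genes. Thinned to 500 UMIs, 0.124% of 2287 removed mutant and 0.117% of 513 removed wild-type barcodes would hold them, the other 5681 mutant and 505 wild-type ones being too shallow, against 0.572% of mutant and 1.06% of wild-type barcodes kept.

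The 8 genes that chose the barcodes are described without comparison. Most barcodes entered on few transcripts. Exactly 2 of the genes were detected in 107 mutant and 73 wild-type cycling barcodes, 3 in 48 mutant and 38 wild-type ones, 4 in 13 mutant and 19 wild-type ones, and 5 or more in 13 mutant and 15 wild-type ones. A single wild-type barcode held all 8. Just outside the rule, 593 mutant barcodes (8.27%) and 263 wild-type barcodes (7.33%) held 1 gene. Depth moved with this number: the median was 1073 UMIs in mutant and 1121 in wild-type barcodes with 1 gene, 1492 in mutant and 1451 in wild-type ones with 2, and 5093 in mutant and 4500 in wild-type ones with 5 or more.

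The gene detected most often in the mutant library was ube2c, with a UMI in 66.9% of mutant (121 of 181) and 53.1% of wild-type cycling barcodes (77 of 145), and 272 UMIs in mutant against 168 in wild-type ones. This symbol stands on a pair of gene identifiers, which held 782 and 2 UMIs over all deposited barcodes. The kinase gene cdk1, detected most often in the wild-type library, was seen in 32.6% of mutant and 55.2% of wild-type cycling barcodes. For top2a the shares were 40.3% in the mutant and 46.9% in the wild-type library, and for mki67 33.7% in the mutant and 39.3% in the wild-type library. The survivin gene birc5a was detected in 35.9% of mutant and 26.2% of wild-type ones. The cyclin genes were among those seen least often. Cyclin A (ccna2) was detected in 15.5% of mutant and 25.5% of wild-type barcodes, and cyclin B (ccnb1) in 27 mutant (14.9%) and 29 wild-type ones. For aurkb the shares were 24.9% in the mutant and 22.8% in the wild-type library. The commonest pairs were top2a with ube2c in the mutant library (43 barcodes, and 37 in the wild-type library) and cdk1 with ube2c in the wild-type library (42 barcodes, and 38 in the mutant library).

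**Figure D1:**
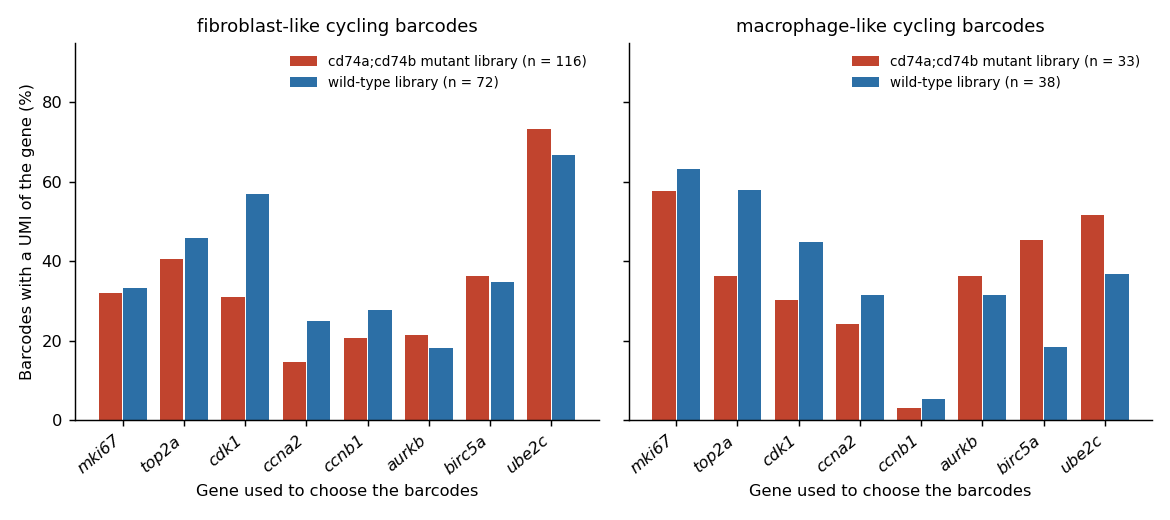
Share of fibroblast-like (left) and macrophage-like (right) cycling barcodes with a UMI of each of the 8 genes that chose them, in percent, for the mutant library (red) and the wild-type library (blue). In the mutant library ccnb1 was seen in 20.7% of fibroblast-like and 3.03% of macrophage-like cycling barcodes, and in the wild-type library in 27.8% and 5.26%, while mki67 was seen more often in the macrophage-like ones.

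Which tissue the cycling barcodes came from was read from clusters computed without the 8 genes and without any gene of the marker and pathway lists, and each cluster was named "X-like" from its markers. Cell cycle genes on no list could still enter the clustering. Fibroblast-like clusters, with the collagen genes and periostin, held 116 of the 181 mutant cycling barcodes (64.1%) and 72 of the 145 wild-type ones (49.7%). Macrophage-like clusters held 33 mutant (18.2%) and 38 wild-type ones (26.2%). Leaving out a leukocyte-like class of 20 barcodes, these classes also had the highest shares of cycling barcodes in each library before thinning. In the fibroblast-like class the share was 4.98% of 2327 barcodes in the mutant library (4.14 to 5.95) and 5.76% of 1250 in the wild-type library (4.53 to 7.20). In the macrophage-like class it was 2.56% of 1287 in the mutant library (1.77 to 3.58) and 4.03% of 944 in the wild-type library (2.86 to 5.48). The wild-type macrophage-like interval overlapped those of the epithelial-type-like (1.77 to 6.63) and cardiomyocyte-like (1.71 to 5.67) classes. Thinned to 1000 UMIs, the fibroblast-like shares were 3.19% in the mutant and 3.79% in the wild-type library. The macrophage-like shares were then 2.07% in the mutant and 2.57% in the wild-type library (13.5 expected of 526). The wild-type cardiomyocyte-like share stood at 2.71% (3.62 expected of 134), too few barcodes to rank it against the macrophage-like one.

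Each of these classes joined a pair of clusters that the libraries filled unequally. Of the fibroblast-like clusters, one led by thbs4a, sncga and mgp held 91 cycling barcodes among 1900 in the mutant library, but 3 among 43 in the wild-type library. The other, led by tac3a and angptl5, held 25 of 427 (5.85%) in the mutant library and 69 of 1207 (5.72%) in the wild-type library. Within that cluster, the one both libraries filled, the shares lay within each other's counting intervals. Thinned to 1000 UMIs, the shares there were 2.79% in the mutant and 3.70% in the wild-type library. The macrophage-like clusters were likewise divided, with 30 of 1216 mutant but 8 of 229 wild-type barcodes in one and 3 of 71 mutant and 30 of 715 wild-type barcodes in the other, which was led by jac genes. The name of the first fibroblast-like cluster depended on the clustering: at a Leiden resolution of 0.5 the cluster holding those barcodes received no name. There 15 of 16 fibroblast markers were over 2-fold (median log2 1.82), but the epicardial list, at 1.33, stood too close for a name. The fibroblast-like class then held 17 cycling barcodes of 316 in the mutant library (5.38%) and 70 of 1197 in the wild-type library (5.85%), and 122 mutant cycling barcodes lay in unnamed clusters.

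The vessel-lining classes held few cycling barcodes. The endocardial-like class, marked by spock3 and aqp8a.1, held 0 of 631 in the mutant library, which allows a share of up to 0.475% if 3 counts are taken as the limit (Clopper-Pearson upper bound 0.583%), and 5 of 338 in the wild-type library (1.48%, 0.482 to 3.42). Endothelial-like barcodes held 4 of 346 in the mutant library (1.16%) and 3 of 277 in the wild-type library (1.08%). Coronary endothelial-like barcodes held 3 of 357 in the mutant library (0.840%) and 2 of 86 in the wild-type library (2.33%). The cardiomyocyte-like class was small in the mutant library, with 0 cycling barcodes of 68, which allows a share of up to 4.41% by the same limit (Clopper-Pearson upper bound 5.28%), and held 12 of 365 in the wild-type library (3.29%, 1.71 to 5.67). An epithelial-type-like class held 1 of 154 mutant barcodes (0.649%) and 10 of 273 wild-type barcodes (3.66%), and a leukocyte-like class of 20 barcodes held 0 of 6 mutant and 2 of 14 wild-type ones. The unnamed clusters held 24 of 1998 mutant barcodes (1.2%) and 1 of 42 wild-type ones. The largest of these, whose barcodes had a median mitochondrial share of 34.7% in the mutant library, contributed 23. In it 7 of 7 erythrocyte and 14 of 15 cardiomyocyte markers were over 2-fold, and neither list led by enough to give a name. Cardiomyocyte markers in the mutant library were thus not confined to the cardiomyocyte-like class. The interval of the mutant cardiomyocyte-like class thus includes the wild-type share. With the mutant class shares weighted by the wild-type class make-up, the mutant share of cycling barcodes was 2.58%, against 4.04% in the wild-type library, without thinning.

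**Figure D2:**
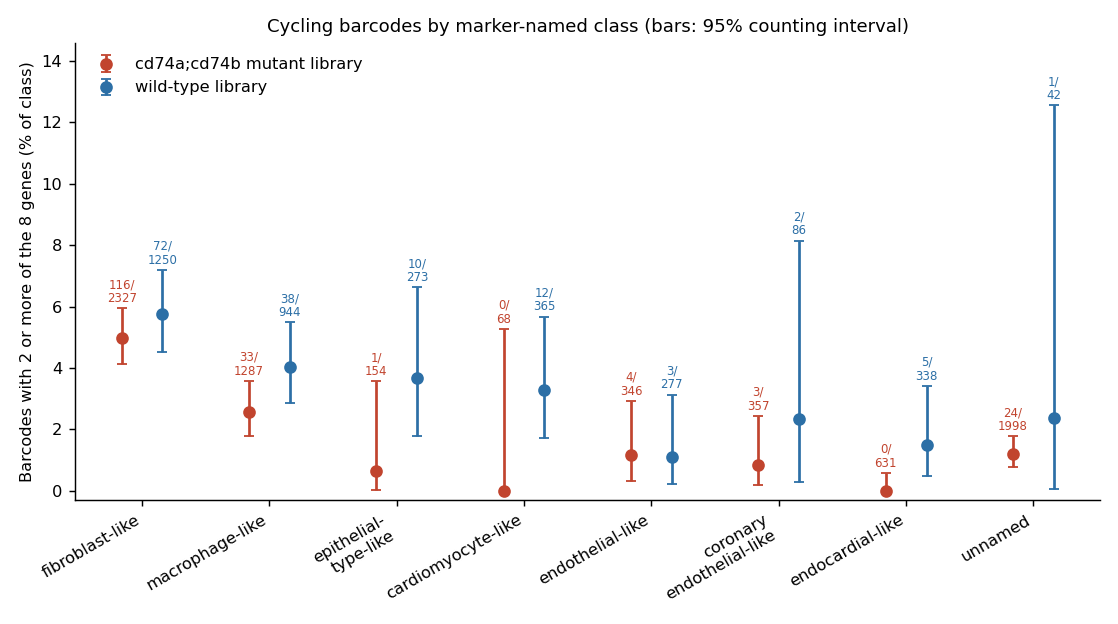
Share of cycling barcodes in each marker-named class in percent, with the mutant library (red) left of the wild-type library (blue), the number of cycling barcodes over all barcodes of the class above each point, and bars for the 95% Clopper-Pearson interval. The fibroblast-like class had the highest share in both libraries among the classes drawn, 4.98% in the mutant and 5.76% in the wild-type library, and the mutant endocardial-like class had 0 of 631 (the leukocyte-like class of 6 mutant and 14 wild-type barcodes is not drawn).

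The marker lists were also counted directly over all cycling barcodes. Fibroblast markers summed to 10029 CPM in cycling and 8684 CPM in negative barcodes of the mutant library, and to 19713 CPM in cycling and 14149 CPM in negative ones of the wild-type library. Here CPM (counts per 1000000) is scaled to non-mitochondrial UMIs. The collagen gene col1a1b stood at 1640 CPM in cycling and 1251 CPM in negative barcodes of the mutant library, and at 3368 CPM in cycling and 2100 CPM in negative ones of the wild-type library. The matricellular gene postnb, a marker of activated fibroblasts, stood at 2181 CPM in cycling and 1452 CPM in negative barcodes of the mutant library, and at 4444 CPM in cycling and 2299 CPM in negative ones of the wild-type library. In the wild-type library 559 of the 1714 postnb UMIs in fibroblast-like cycling barcodes lay in 1 barcode. Of the 16 fibroblast markers 7 were higher and 4 lower in cycling than in negative barcodes of both libraries. Among the lower ones, fn1b stood at 834 CPM in cycling and 1370 CPM in negative barcodes of the mutant library, and at 1047 CPM in cycling and 1990 CPM in negative ones of the wild-type library. The transferrin gene tfa stood at 97.3 CPM in cycling and 288 CPM in negative barcodes of the mutant library, and at 269 CPM in cycling and 723 CPM in negative ones of the wild-type library. Macrophage markers summed to 3637 CPM in cycling and 3523 CPM in negative barcodes of the mutant library, and to 5767 CPM in cycling and 6477 CPM in negative ones of the wild-type library, with 3 of 13 higher and 5 lower in both libraries. The progranulin gene grn1 stood at 1762 CPM in cycling and 1584 CPM in negative barcodes of the mutant library, and at 2803 CPM in cycling and 3195 CPM in negative ones of the wild-type library. At least 2 fibroblast markers were seen in 83.4% of cycling barcodes, against 78.8% of negative ones, in the mutant library and in 79.3% of cycling, against 73.5% of negative ones, in the wild-type library.

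Endocardial, endothelial and coronary markers were at lower levels in cycling than in negative barcodes of both libraries. Endocardial markers summed to 245 CPM in cycling and 904 CPM in negative barcodes of the mutant library, and to 196 CPM in cycling and 855 CPM in negative ones of the wild-type library. The endocardial marker spock3 stood at 74.1 CPM in cycling and 279 CPM in negative barcodes of the mutant library, and at 59.1 CPM in cycling and 350 CPM in negative ones of the wild-type library. Endothelial markers summed to 229 CPM in cycling and 640 CPM in negative barcodes of the mutant library, and to 177 CPM in cycling and 709 CPM in negative ones of the wild-type library. Coronary endothelial markers summed to 190 CPM in cycling and 826 CPM in negative barcodes of the mutant library, and to 37.8 CPM in cycling and 220 CPM in negative ones of the wild-type library. Cardiomyocyte markers, abundant in this tissue, summed to 2907 CPM in cycling and 7204 CPM in negative barcodes of the mutant library, and to 5649 CPM in cycling and 7613 CPM in negative ones of the wild-type library. Erythrocyte markers summed to 554 CPM in cycling and 1399 CPM in negative barcodes of the mutant library, and to 1111 CPM in cycling and 1926 CPM in negative ones of the wild-type library. Both were thus lower in cycling barcodes. Markers of mural cells, the contractile cells around vessels, summed to 1253 CPM in cycling and 848 CPM in negative barcodes of the mutant library, and to 1548 CPM in cycling and 1005 CPM in negative ones of the wild-type library. Of these 8 markers 2 were higher and 2 lower in both libraries. The excess of the sum lay in tagln, a contractile gene, which stood at 901 CPM in cycling and 497 CPM in negative barcodes of the mutant library, and at 1196 CPM in cycling and 588 CPM in negative ones of the wild-type library. The potassium channel subunit gene kcne4 stood at 82.5 CPM in cycling and 168 CPM in negative barcodes of the mutant library, and at 61.5 CPM in cycling and 135 CPM in negative ones of the wild-type library. Epicardial markers summed to 842 CPM in cycling and 871 CPM in negative barcodes of the mutant library, and to 1768 CPM in cycling and 1889 CPM in negative ones of the wild-type library. Those of the epithelial type summed to 99.4 CPM in cycling and 115 CPM in negative barcodes of the mutant library, and to 191 CPM in cycling and 297 CPM in negative ones of the wild-type library. General leukocyte markers, shared by blood cell types, summed to 548 CPM in cycling and 697 CPM in negative barcodes of the mutant library, and to 1028 CPM in cycling and 1044 CPM in negative ones of the wild-type library. Lymphoid and granulocyte markers were rare. B cell markers had 0 UMIs in cycling barcodes of both libraries, T or NK cell markers 19 UMIs in mutant and 27 in wild-type ones, neutrophil markers 9 in mutant and 11 in wild-type ones, and thrombocyte markers 45 in mutant and 46 in wild-type ones.

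Cycling barcodes of the small classes carried mixed markers. The 12 wild-type cardiomyocyte-like cycling barcodes held cardiomyocyte markers at 37049 CPM, against 64391 in the negative barcodes of their class, with fibroblast markers at 18260 against 12691 CPM and macrophage markers at 3387 against 2137 CPM. Of the 5 wild-type endocardial-like cycling barcodes, 1 (20%) held at least 2 endocardial markers, against 72.1% of negative barcodes in the class. Of the 10 wild-type epithelial-type-like ones, 6 (60%) held at least 2 epithelial-type markers, against 30.7% of negative barcodes. These markers stood at 1159 CPM in the cycling and 2065 CPM in the negative barcodes of that class, whose median depth was 3838 UMIs in cycling ones and 1536 UMIs overall. Over all classes, 17.1% of cycling barcodes, against 17.0% of negative ones, carried at least 3 fibroblast and 3 macrophage or leukocyte markers together in the mutant library. In the wild-type library the shares were 19.3% of cycling and 10.3% of negative barcodes. Within the middle range of cycling depth, they were 16.5% of cycling (15 of 91), against 13.8% of negative, barcodes in the mutant library and 27.4% (20 of 73), against 10.3%, in the wild-type library. Barcodes holding more than 1 cell were not removed, and their part in these values was not tested.

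Cycling barcodes were then described by their other transcripts. For each gene, the UMIs observed in cycling barcodes were set against the UMIs expected if each cycling barcode had held the share found in negative barcodes of its own cluster and library, so that the make-up by cluster and the number of UMIs enter the expected value. A log2 ratio of 1 is a 2-fold excess. Among 9329 genes with at least 30 UMIs in negative barcodes, 135 (1.45%) were at least 2-fold higher, with a counting interval above equality, in both libraries, and 34 (0.364%) were at least 2-fold lower in both. Taken by itself, the mutant library had 3.25% of genes called higher and 3.47% lower, and the wild-type library 6.06% higher and 1.82% lower. The median of all genes tested was -0.17 in the mutant and 0.07 in the wild-type library. Of the 135 higher genes 55 were on one of the 11 pathway lists, each of which held 10 to 48 of the 9329 tested genes. Of the 34 lower genes 0 were, which is no result about the lists, since they held a small part of all genes. Because the barcodes were chosen by cell cycle genes, an excess of other cell cycle genes describes which genes accompany them and is not separate evidence of division.

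**Figure D3:**
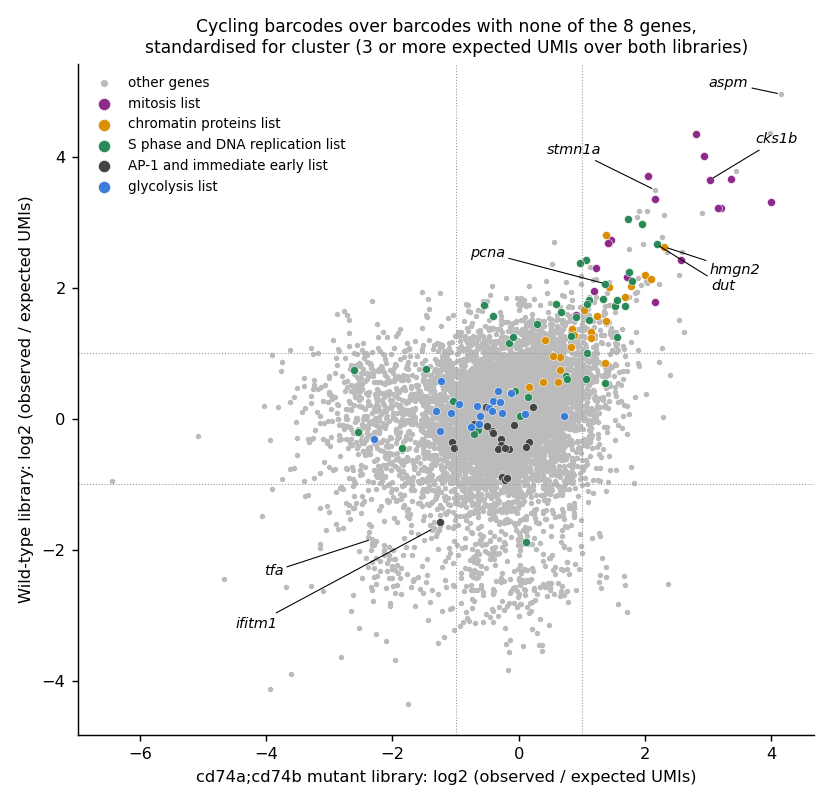
Each point is a gene, with the log2 ratio of observed over expected UMIs in cycling barcodes of the mutant library (x axis) and of the wild-type library (y axis), for 8187 genes with at least 3 expected UMIs over both libraries and without the 8 genes of the rule; dotted lines mark 2-fold. The unlisted gene aspm lies at the upper right (4.15 in the mutant and 4.96 in the wild-type library) beside genes of the mitosis list (purple), most AP-1 genes (dark) and glycolysis genes (blue) lie near or below 0 in the mutant library, and tfa lies lower left at -2.33 in the mutant and -1.84 in the wild-type library.

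The mitosis list, without the 8 genes of the rule, was the one farthest from 0. Of its 29 tested genes, 26 were at least 2-fold higher in both libraries, against 1.45% of all genes, and its median log2 was 2.66 in the mutant and 3.26 in the wild-type library. Its genes together had 818 UMIs in mutant cycling barcodes, against 102 expected, and 944 against 83.2 in wild-type ones, a log2 of 2.99 (2.90 to 3.10) in the mutant and 3.50 (3.41 to 3.60) in the wild-type library. The kinase gene plk1, which drives entry into mitosis, had 25 UMIs in mutant cycling barcodes, against 3.16 expected, and 46 against 1.77 in wild-type ones (log2 2.80 in the mutant and 4.36 in the wild-type library). The cdc20 product activates the anaphase-promoting complex, and cdc20 had 23 UMIs in mutant cycling barcodes, against 1.36 expected, and 23 against 0.971 in wild-type ones (log2 3.66 in the mutant and 4.00 in the wild-type library). Mad2l1 belongs to the checkpoint that holds this complex back, and mad2l1 had 42 UMIs in mutant cycling barcodes, against 3.63 expected, and 34 against 2.23 in wild-type ones (log2 3.36 in the mutant and 3.66 in the wild-type library). The genes of the small Cdk-binding subunits, cks2 and cks1b, were among the most abundant of the list. Of these, cks2 had 70 UMIs in mutant cycling barcodes, against 3.91 expected, and 55 against 5.1 in wild-type ones. The other, cks1b, had 67 UMIs in mutant cycling barcodes, against 7.74 expected, and 53 against 3.74 in wild-type ones.

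Several of the genes named by the highest ratios act in the spindle or in cytokinesis. The spindle pole gene aspm, which was on no list, had the highest value of any gene by the less extreme library, with 56 UMIs in mutant cycling barcodes, against 2.68 expected, and 48 against 1.06 in wild-type ones (log2 4.15 in the mutant and 4.96 in the wild-type library). The spindle motor gene kif11 stood at a log2 of 3.77 in the mutant and 4.67 in the wild-type library. The kinetochore motor gene cenpe stood at 2.96 in the mutant and 4.46 in the wild-type library. Kinesins of the cleavage furrow were alike, with kif23 at 3.54 in the mutant and 3.94 in the wild-type library. Its relative kif20a stood at 3.87 in the mutant and 4.39 in the wild-type library. The midzone bundling gene prc1b stood at 2.91 in the mutant and 4.28 in the wild-type library. The contractile ring scaffold gene anln stood at 2.94 in the mutant and 4.01 in the wild-type library. Spindle assembly factors were lower in the wild-type library than these, with tpx2 at 3.16 in the mutant and 3.22 in the wild-type library and tacc3 at 3.21 in the mutant and 3.21 in the wild-type library. The gene cdca8 encodes the subunit that joins Aurkb and Birc5 in the passenger complex. It had 20 UMIs in mutant cycling barcodes, against 0.78 expected, and 24 against 0.922 in wild-type ones. The nuclear import gene kpna2 had 61 UMIs in mutant cycling barcodes, against 5.2 expected, and 78 against 5.21 in wild-type ones. The gene si:ch211-69g19.2, which carries no gene name, had 33 UMIs in mutant cycling barcodes, against 1.64 expected, and 43 against 1.61 in wild-type ones.

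The 20 genes with the highest ratios in the less extreme library ran between 2.91 and 4.15 in the mutant library and between 3.21 and 4.96 in the wild-type library. Of these, 15 were on the mitosis list, 1 on another list and 4 on none. The ranking took genes with at least 30 UMIs observed or expected in cycling barcodes of both libraries together. A gene could thus enter it by being high there. A total of 15 of the 20 were tested and called. The other 5 (cdca8, nusap1, kif20a, kif11 and si:ch211-266i6.3) had too few UMIs in negative barcodes to enter the count. They were ranked only through their UMIs in cycling barcodes. These transcripts were sparse in single barcodes, so their detection is given at equal depth. Thinned to 1000 UMIs, at least 1 mitosis list gene outside the rule would be seen in 76.5% of mutant cycling barcodes, against 14.1% of negative ones, and in 82.1% of wild-type cycling barcodes, against 14.5%. Barcodes with 1 of the 8 genes lay between them, at 45.9% in the mutant and 47.3% in the wild-type library. Before thinning, the cycling shares were 87.8% in the mutant library, against 20.4% of negative barcodes, and 92.4% in the wild-type library, against 20.2%.

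Genes of S phase and DNA replication were higher as a group but less so than those of mitosis. Of 48 tested genes 14 were called higher in both libraries and 0 lower, against 1.45% higher and 0.364% lower of all genes. The median log2 was 0.79 in the mutant and 1.28 in the wild-type library. The list had 676 UMIs in mutant cycling barcodes, against 294 expected, and 857 against 256 in wild-type ones, a log2 of 1.2 (1.09 to 1.31) in the mutant and 1.74 (1.65 to 1.84) in the wild-type library. The sliding clamp gene pcna, the most abundant of the list, had 148 UMIs in mutant cycling barcodes, against 57 expected, and 268 against 63.8 in wild-type ones (log2 1.37 in the mutant and 2.06 in the wild-type library). Genes of nucleotide supply were among the highest. The dut product keeps uracil out of DNA, and dut had 104 UMIs in mutant cycling barcodes, against 22.5 expected, and 96 against 14.7 in wild-type ones (log2 2.18 in the mutant and 2.67 in the wild-type library). The folate enzyme gene dhfr stood at 1.94 in the mutant and 2.98 in the wild-type library. The gene rrm1, a subunit of ribonucleotide reductase, stood at 1.79 in the mutant and 2.11 in the wild-type library. Of the single-strand binding genes, rpa2 stood at 1.52 in the mutant and 1.73 in the wild-type library. Its partner rpa3 stood at 1.55 in the mutant and 1.81 in the wild-type library. Thinned to 1000 UMIs, any gene of this list would be seen in 59.5% of mutant cycling barcodes, against 28.8% of negative ones, and in 68.6% of wild-type ones, against 26.8%. For pcna these shares were 23.8% against 8.01% in the mutant library and 38.8% against 8.42% in the wild-type library.

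Genes of chromatin proteins gave more UMIs than those of mitosis or S phase. Of 25 tested genes 12 were called higher in both libraries, against 1.45% of all genes. The median log2 was 1.14 in the mutant and 1.28 in the wild-type library. The list had 3050 UMIs in mutant cycling barcodes, against 1052 expected, and 3155 against 971 in wild-type ones. Its summed log2 was 1.54 (1.48 to 1.59) in the mutant and 1.70 (1.65 to 1.75) in the wild-type library. The nucleosome-binding gene hmgn2 had 970 UMIs in mutant cycling barcodes, against 196 expected, and 832 against 134 in wild-type ones (log2 2.31 in the mutant and 2.63 in the wild-type library). The DNA-bending genes hmgb2a and hmgb2b were higher too. The first, hmgb2a, had 364 UMIs in mutant cycling barcodes, against 90.9 expected, and 376 against 81.9 in wild-type ones. The second, hmgb2b, had 305 UMIs in mutant cycling barcodes, against 71.1 expected, and 305 against 69.2 in wild-type ones. The histone variant gene h2az2b had 483 UMIs in mutant cycling barcodes, against 184 expected, and 521 against 185 in wild-type ones (log2 1.39 in the mutant and 1.49 in the wild-type library). Thinned to 1000 UMIs, hmgn2 would be seen in 73.3% of mutant cycling barcodes, against 25.7% of negative ones, and in 71.4% of wild-type ones, against 23.2%. For hmgb2a the shares were 48.5% against 16.3% in the mutant library and 55.7% against 17.1% in the wild-type library.

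Tubulins and their regulators differed less. Of 21 tested genes 3 were called higher in both libraries, against 1.45% of all genes. The median log2 was 0.69 in the mutant and 0.90 in the wild-type library. The summed log2 was 0.85 (0.79 to 0.91) in the mutant and 1.13 (1.08 to 1.18) in the wild-type library. The stathmin gene stmn1a, whose product takes microtubules apart, was the highest of this list, with 75 UMIs in mutant cycling barcodes, against 16.4 expected, and 93 against 7.79 in wild-type ones (log2 2.16 in the mutant and 3.50 in the wild-type library). Thinned to 1000 UMIs it would be seen in 15.5% of mutant cycling barcodes, against 2.62% of negative ones, and in 18.6% of wild-type ones, against 1.15%. The alpha-tubulin gene tuba8l had 359 UMIs in mutant cycling barcodes, against 141 expected, and 561 against 180 in wild-type ones (log2 1.34 in the mutant and 1.64 in the wild-type library). The beta-tubulin gene tubb4b stood at 0.97 in the mutant and 1.27 in the wild-type library. A second alpha-tubulin gene, tuba8l4, stood at 0.64 in the mutant and 1.23 in the wild-type library. The dynein light chain gene dynll1 stood at 0.72 in the mutant and 0.89 in the wild-type library. Tubulin genes are close copies of each other, so reads may be divided among them unevenly by the counting.

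Genes that act before S phase lay near 0 as a group. Of 10 tested genes of the G1 cyclins and Myc, 0 were called in either direction. Over all genes 1.45% were called higher and 0.364% lower. A count of 0 in lists of 10 to 22 genes, here and below, lies near those shares. The list had 101 UMIs in mutant cycling barcodes, against 101 expected, and 140 against 152 in wild-type ones. Its summed log2 was 0.00 (-0.29 to 0.28) in the mutant and -0.12 (-0.37 to 0.12) in the wild-type library. The G1 cyclin gene ccnd1 stood at -0.04 in the mutant and 0.12 in the wild-type library. The Myc gene mycb stood at -0.88 in the mutant and -0.45 in the wild-type library. The gene of the kinase of the G1 to S transition, cdk2, stood at 0.88 in the mutant and 1.49 in the wild-type library. Genes of cell cycle brakes were lower in sum, with 0 of 19 called. Their median log2 was -0.58 in the mutant and -0.16 in the wild-type library, and their summed log2 was -0.54 (-0.66 to -0.43) in the mutant and -0.28 (-0.38 to -0.18) in the wild-type library. Among them the antiproliferative gene btg1 stood at -0.49 in the mutant and -0.54 in the wild-type library. Its relative btg2 stood at -0.32 in the mutant and -0.46 in the wild-type library. The stress gene gadd45ba stood at -1.0 in the mutant and -0.42 in the wild-type library. Genes of the nucleolus and the chaperonin serve ribosome making and protein folding, and 0 of 22 were called. Their median was 0.07 in the mutant and 0.36 in the wild-type library, and their summed log2 was 0.23 (0.15 to 0.32) in the mutant and 0.36 (0.29 to 0.43) in the wild-type library. The nucleophosmin gene npm1a stood at 0.35 in the mutant and 0.39 in the wild-type library. The fibrillarin gene fbl stood at 0.60 in the mutant and 0.62 in the wild-type library. The dyskerin gene dkc1 stood at 0.56 in the mutant and 1.19 in the wild-type library. Ribosomal protein genes took 46.7% of non-mitochondrial UMIs in mutant cycling barcodes, against 45.9% in negative ones, and 35.0% in wild-type ones, against 39%.

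The 10 genes with the lowest ratios had varied roles. The transferrin gene tfa, whose product carries iron in blood, had 46 UMIs in mutant cycling barcodes, against 232 expected, and 114 against 409 in wild-type ones (log2 -2.33 in the mutant and -1.84 in the wild-type library). The interferon-induced membrane gene ifitm1 had 137 UMIs in mutant cycling barcodes, against 349 expected, and 160 against 511 in wild-type ones (log2 -1.34 in the mutant and -1.67 in the wild-type library). The complement gene c4b had 9 UMIs in mutant cycling barcodes, against 30.6 expected, and 20 against 67.8 in wild-type ones. A second complement gene, c6 (identifier ENSDARG00000093052), had 13 UMIs in mutant cycling barcodes, against 36 expected, and 1 against 12.1 in wild-type ones. The matrix link protein gene hapln1a had 20 UMIs in mutant cycling barcodes, against 53.1 expected, and 17 against 61.5 in wild-type ones. A gene of creatine synthesis, gamt, had 11 UMIs in mutant cycling barcodes, against 32.7 expected, and 9 against 44.6 in wild-type ones. The ferritin gene fthl28 had 4 UMIs in mutant cycling barcodes, against 14.2 expected, and 8 against 49.8 in wild-type ones. The gene BX649485.2, with no annotated role, had 8 UMIs in mutant cycling barcodes, against 32.5 expected, and 2 against 15.4 in wild-type ones. The last of the 10 lowest, tcnbb and apoc1, were not called, and were expected mostly in the mutant library. Both lead a cluster of 111 mutant and 0 wild-type barcodes, of which 1 was cycling, with 6644 UMIs. Expected UMIs were set by cluster, so these rest in part on that 1 barcode. For tcnbb there were 6 UMIs in mutant cycling barcodes, against 47.9 expected, and 0 against 1.02 in wild-type ones.

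The genes called lower depended more on the clusters than those called higher. Within the fibroblast-like class tfa stood at 143 CPM in cycling and 655 CPM in negative barcodes of the mutant library, and at 258 CPM in cycling and 1238 CPM in negative ones of the wild-type library. It was detected in 22.4% of cycling and 31.4% of negative barcodes in the mutant library and 37.5% of cycling and 51.5% of negative ones in the wild-type library. In the same class ifitm1 stood at 391 CPM in cycling and 992 CPM in negative barcodes of the mutant library, and at 485 CPM in cycling and 1696 CPM in negative ones of the wild-type library, with 51 of its 130 wild-type UMIs in 1 barcode. With 20 clusters instead of 12 (Leiden resolution 2), the log2 of tfa was -1.95 in the mutant and -1.07 in the wild-type library. That of ifitm1 was then -0.96 in the mutant and -0.64 in the wild-type library. At this resolution 20 genes in place of 34 were called lower, 17 of them shared, while 121 of the 135 higher genes were called again. Those finer clusters divided the fibroblast-like barcodes unevenly. A cluster led by sema3fb, ifitm1, rbp4 and c4b held 0 cycling barcodes of 151 in the mutant library and 2 of 411 in the wild-type library. One led by tac3a, plppr5a, col11a1a and anln held 29 of 339 in the mutant and 51 of 499 in the wild-type library. The gene anln is on the mitosis list, and leading genes were scored with the cycling barcodes included. Cell cycle genes on no list could also enter the clustering, and their part in this share was not tested. Each of the 20 highest genes kept a ratio past 2-fold in both libraries under every alternative tried, and 4 of the 10 lowest did. Both sets were chosen as the extremes of these data, and the 20 highest could enter by their UMIs in cycling barcodes. The 20 highest began at 2.91 or more in the mutant and 3.21 or more in the wild-type library. Some of the 10 lowest began nearer 2-fold, so these counts do not compare the stability of the sets.

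Lists outside the cell cycle held 16 to 21 tested genes each and gave 0 genes called in both libraries, higher or lower. Over all genes 1.45% were called higher and 0.364% lower, so 0 in lists of this size lies near those shares. Genes of AP-1 and the immediate early response are switched on under stress and growth signals. Their median log2 was -0.29 in the mutant and -0.41 in the wild-type library over 21 tested genes, of which 3 lay above 0 in the mutant and 2 in the wild-type library. Their summed log2 was -0.37 (-0.46 to -0.29) in the mutant and -0.22 (-0.28 to -0.15) in the wild-type library. The jun gene had 62 UMIs in mutant cycling barcodes, against 127 expected, and 114 against 155 in wild-type ones (log2 -1.03 in the mutant and -0.45 in the wild-type library). The phosphatase gene dusp1 stood at -1.06 in the mutant and -0.35 in the wild-type library. The fos gene fosab stood at -0.43 in the mutant and -0.18 in the wild-type library, and the nuclear receptor gene nr4a1 at 0.23 in the mutant and 0.17 in the wild-type library. Antigen presentation genes had a median of -0.43 in the mutant and -0.11 in the wild-type library over 16 tested genes. Their summed log2 was -0.54 (-0.66 to -0.43) in the mutant and -0.18 (-0.26 to -0.10) in the wild-type library. The gene of the light chain of MHC class I, b2m, stood at -0.48 in the mutant and -0.14 in the wild-type library. Of the cathepsin genes, ctss2.1 stood at -1.0 in the mutant and -0.08 in the wild-type library. A second one, ctss2.2, stood at -1.16 in the mutant and -0.31 in the wild-type library. Heat shock genes had a median of -0.11 in the mutant and 0.02 in the wild-type library over 16 tested genes. Their summed log2 was -0.09 (-0.15 to -0.03) in the mutant and 0.08 (0.04 to 0.13) in the wild-type library. Without the 2 deepest cycling barcodes the wild-type value was -0.04. The constitutive chaperone gene hspa8 stood at -0.12 in the mutant and 0.27 in the wild-type library, and the collagen chaperone gene serpinh1b at 0.33 in the mutant and 0.46 in the wild-type library. Glycolysis genes had a median of -0.54 in the mutant and 0.10 in the wild-type library over 20 tested genes. Their summed log2 was -0.41 (-0.50 to -0.32) in the mutant and 0.16 (0.10 to 0.21) in the wild-type library. The gapdh gene stood at -1.07 in the mutant and 0.09 in the wild-type library, and the related gene gapdhs at 0.10 in the mutant and 0.07 in the wild-type library.

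The number of the 8 genes seen in a barcode was set against the lists, in barcodes with 1, 2, 3 and 4 or more of them. The summed log2 of the mitosis list was 1.79, 2.44, 3.12 and 3.60 in the mutant library and 2.13, 2.85, 3.74 and 3.84 in the wild-type library. It was higher with each added gene in both libraries, the last step in the wild-type library being within counting error, and barcodes with 1 gene, just outside the rule, lay above 0 as well. For the S phase list the values were 1.06, 1.30, 1.47 and 0.57 in the mutant library and 1.68, 1.98, 2.01 and 1.32 in the wild-type library, with the lowest value of both libraries in barcodes with 4 or more genes. The 2 deepest wild-type barcodes were among these. The chromatin list gave 0.78, 1.34, 1.57 and 1.83 in the mutant library and 0.94, 1.57, 1.96 and 1.68 in the wild-type library. The tubulin list gave 0.42, 0.66, 0.91 and 1.1 in the mutant library and 0.57, 1.04, 1.07 and 1.24 in the wild-type library. The antigen presentation list gave -0.17, -0.30, -0.64 and -1.02 in the mutant library and -0.17, -0.38, -0.15 and 0.04 in the wild-type library. Its values were lower with each added gene in the mutant library, and not in the wild-type library. The wild-type value at 4 or more genes also includes the 2 deepest barcodes and was not summed without them. Over all wild-type cycling barcodes the antigen presentation list stood at -0.18 with them and -0.30 without them. The brakes list gave -0.14, -0.48, -0.48 and -0.77 in the mutant library and -0.06, -0.30, -0.34 and -0.23 in the wild-type library.

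**Figure D4:**
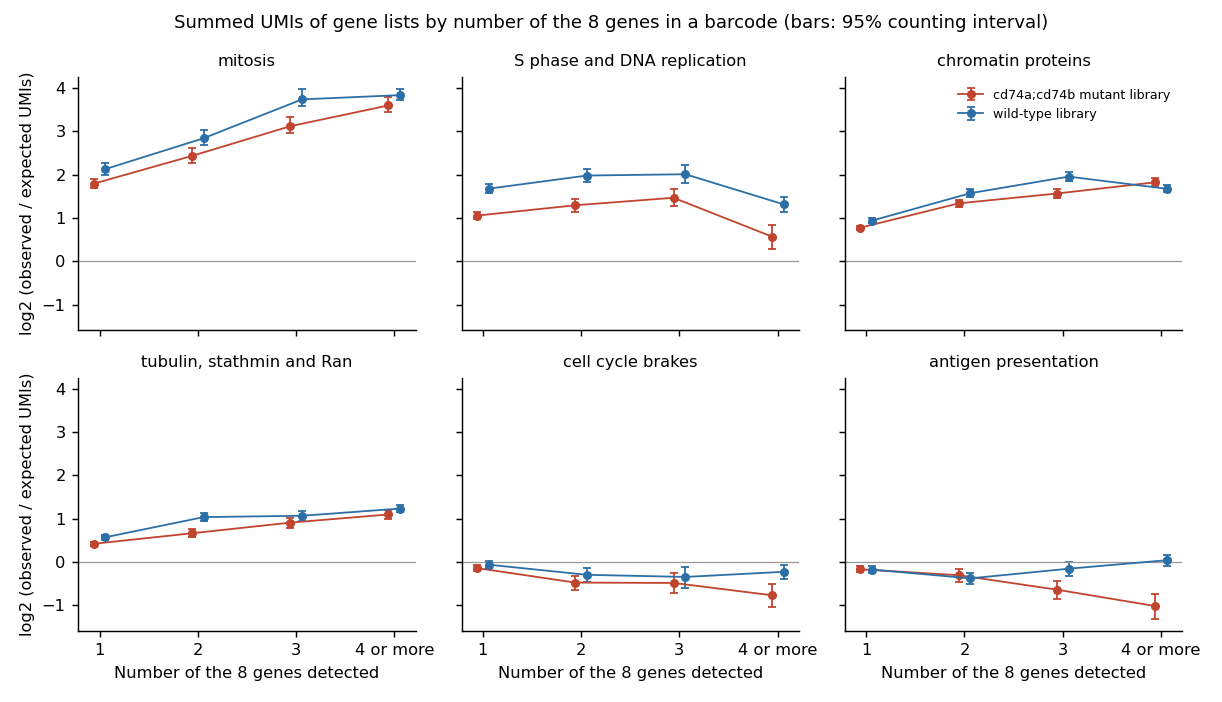
Log2 of observed over expected UMIs summed over the genes of a list (y axis) in barcodes with 1, 2, 3 or 4 and more of the 8 genes (x axis), for the mutant library (red) and the wild-type library (blue), with bars for the 95% counting interval and a line at 0. The mitosis list stood at 3.60 in the mutant and 3.84 in the wild-type library at 4 or more genes, while the S phase list stood there at 0.57 in the mutant and 1.32 in the wild-type library, below its 1.47 in the mutant and 2.01 in the wild-type library at 3 genes.

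The cycling barcodes of the fibroblast-like and macrophage-like classes shared the mitosis excess. Its summed log2 was 3.12 in the mutant and 3.45 in the wild-type library in the fibroblast-like class, and 3.05 in the mutant and 3.92 in the wild-type library in the macrophage-like class. S phase genes stood at 0.85 (0.70 to 1.0) in the mutant and 1.49 (1.36 to 1.62) in the wild-type library in the fibroblast-like class. In the macrophage-like class they stood at 2.05 (1.87 to 2.25) in the mutant and 2.02 (1.84 to 2.2) in the wild-type library, and the counting intervals of the classes did not overlap in either library. Chromatin genes stood at 1.39 in the mutant and 1.33 in the wild-type library in fibroblast-like and 2.19 in the mutant and 2.52 in the wild-type library in macrophage-like barcodes. Of these, hmgn2 stood at 1467 CPM in cycling and 356 CPM in negative barcodes of the mutant library, and at 1139 CPM in cycling and 299 CPM in negative ones of the wild-type library, in the fibroblast-like class. It was detected there in 81.9% of cycling and 32.8% of negative barcodes in the mutant library and 86.1% of cycling and 29.9% of negative ones in the wild-type library. In the macrophage-like class hmgn2 stood at 5163 CPM in cycling and 683 CPM in negative barcodes of the mutant library, and at 4620 CPM in cycling and 379 CPM in negative ones of the wild-type library. It was detected there in 97% of cycling and 39.9% of negative barcodes in the mutant library and 94.7% of cycling and 27% of negative ones in the wild-type library. In that class the stathmin gene stmn1a was detected in 45.5% of cycling and 3.36% of negative barcodes in the mutant library and 47.4% of cycling and 0.928% of negative ones in the wild-type library. These clusters were filled unequally by the libraries, so a class value compares mostly different clusters between them.

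Genes of tissue identity in these classes varied, and the fibroblast marker tfa was lower in cycling barcodes of its class, as given above. Another fibroblast marker, the fibronectin gene fn1b, stood at 1168 CPM in cycling and 2985 CPM in negative barcodes of the mutant library, and at 1232 CPM in cycling and 3498 CPM in negative ones of the wild-type library, in the fibroblast-like class. Without the 2 deepest cycling barcodes its wild-type value was 746 CPM. Among macrophage-like barcodes grn1 stood at 9535 CPM in cycling and 5848 CPM in negative barcodes of the mutant library, and at 12976 CPM in cycling and 12534 CPM in negative ones of the wild-type library. The scavenger receptor gene marco stood there at 93.9 CPM in cycling and 205 CPM in negative barcodes of the mutant library, and at 160 CPM in cycling and 476 CPM in negative ones of the wild-type library. Among fibroblast-like barcodes col1a1b stood at 2240 CPM in cycling and 2380 CPM in negative barcodes of the mutant library, and at 4817 CPM in cycling and 3848 CPM in negative ones of the wild-type library. There postnb stood at 3092 CPM in cycling and 3293 CPM in negative barcodes of the mutant library, and at 6401 CPM in cycling and 4829 CPM in negative ones of the wild-type library. Without the 2 deepest cycling barcodes the wild-type value of postnb was 3822 CPM, below that of negative barcodes. Cardiomyocyte markers in fibroblast-like cycling barcodes stood at 2712 CPM, against 5649 in negative ones of the class, in the mutant library. In the wild-type library they stood at 5183 CPM, against 3159, and at 3735 CPM without the same 2 barcodes. AP-1 genes stood at -0.44 in the mutant and -0.50 in the wild-type library in fibroblast-like and -0.08 in the mutant and -0.05 in the wild-type library in macrophage-like barcodes. Glycolysis genes stood at -0.35 in the mutant and 0.36 in the wild-type library in fibroblast-like and -0.33 in the mutant and -0.28 in the wild-type library in macrophage-like barcodes. Antigen presentation genes stood at -0.50 in the mutant and 0.04 (-0.11 to 0.20) in the wild-type library in fibroblast-like barcodes. In macrophage-like barcodes they stood at -0.50 in the mutant and -0.35 in the wild-type library. The wild-type fibroblast-like value includes the 2 deepest cycling barcodes, and this list was not summed by class without them. Over all classes its wild-type value was -0.18 with these 2 barcodes and -0.30 (-0.38 to -0.22) without them.

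**Figure D5:**
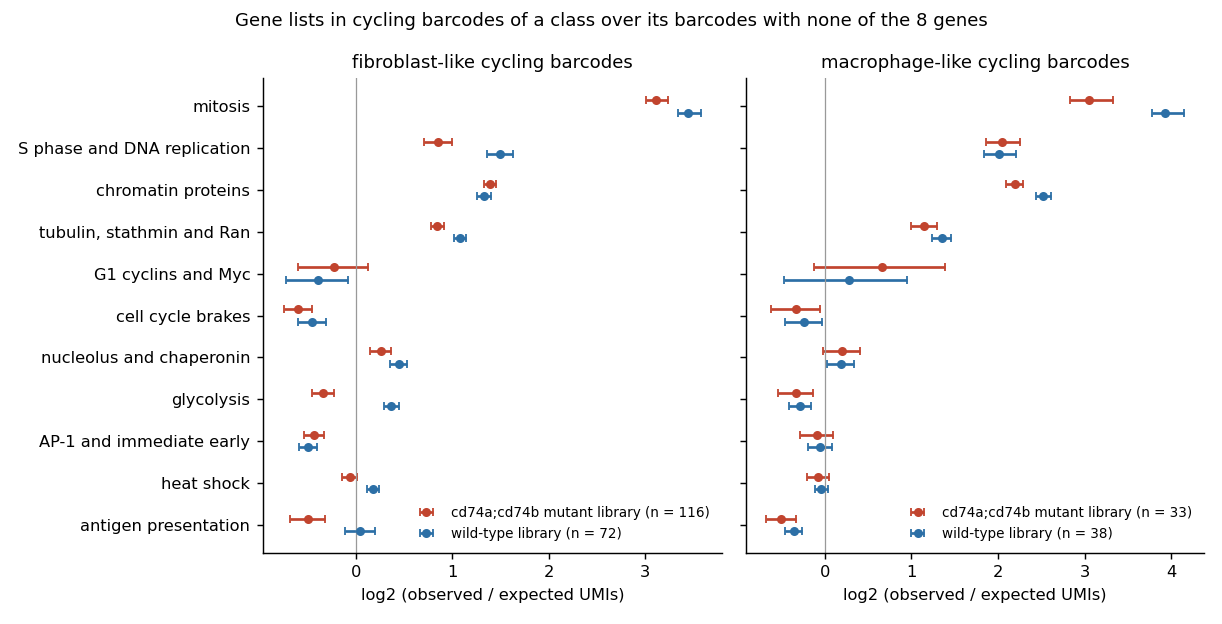
Log2 of observed over expected UMIs summed over each list (x axis), in fibroblast-like (left) and macrophage-like (right) cycling barcodes, for the mutant library (red, above) and the wild-type library (blue, below), with bars for the 95% counting interval. Mitosis genes lie between 3.05 and 3.92 in all 4 sets, and S phase genes at 0.85 in mutant fibroblast-like against 2.05 in mutant macrophage-like barcodes.

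Cycling barcodes of the mutant library were last set against those of the wild-type library, with the same ratio in negative barcodes beside it. Of the mutated genes, cd74a stood at 78.3 CPM in mutant cycling barcodes and 910 CPM in wild-type ones, a log2 ratio of -3.52 (-4.07 to -3.05), and at -3.80 in negative barcodes. The second gene, cd74b, stood at 21.2 CPM in mutant cycling barcodes and 355 CPM in wild-type ones, a log2 ratio of -4.00 (-5.16 to -3.15), and at -3.35 in negative barcodes. Within each library cd74a had 37 UMIs in mutant cycling barcodes, against 37.4 expected, and 385 against 445 in wild-type ones, and in the wild-type fibroblast-like class 35 of its 84 UMIs lay in 1 barcode. Among 1271 genes with at least 50 UMIs in cycling barcodes, 26 (2.05%) were at least 2-fold higher and 284 (22.3%) at least 2-fold lower in the mutant library. The median of these genes was -0.51 in cycling and -0.41 in negative barcodes, and the split of calls depended on the scaling. Scaled by the median ratio, 74 were higher and 69 lower.

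The highest gene by this ratio, CR318588.1, stood at 4.20 in cycling and 3.84 in negative barcodes. The retinol-binding gene rbp2a stood at 3.38 in cycling and 2.18 in negative barcodes. Next were zgc:152791 at 2.55 in cycling and 2.15 in negative barcodes, and ifi45 at 2.12 in cycling and 2.13 in negative barcodes. The G protein subunit gene gng10 stood at 2.05 in cycling and 1.57 in negative barcodes. Of the lowest beside the cd74 genes, the coagulation factor gene f13a1a.1 had 1 UMI in mutant and 88 UMIs in wild-type cycling barcodes, and the 88 lay in 5 barcodes. The chemokine gene cxcl8b.1 stood at -3.62 in cycling and -5.02 in negative barcodes. The gene BX248082.2 stood at -3.41 in cycling and -3.01 in negative barcodes. The lists are given beside that median of all genes, and their first values are not standardised for class. The mitosis list stood at -0.37 (-0.50 to -0.23) in cycling and 0.03 in negative barcodes. The S phase list stood at -0.50 (-0.65 to -0.35) in cycling and 0.00 in negative barcodes. The chromatin list stood at -0.21 (-0.28 to -0.14) in cycling and -0.09 in negative barcodes, and the tubulin list at -0.61 (-0.69 to -0.54) in cycling and -0.42 in negative barcodes. The G1 list stood at -0.63 (-1.01 to -0.25) in cycling and -0.84 in negative barcodes. The brakes list stood at -0.62 (-0.77 to -0.46) in cycling and -0.41 in negative barcodes, and the nucleolus list at -0.76 (-0.87 to -0.64) in cycling and -0.65 in negative barcodes. Glycolysis genes stood at -1.40 (-1.51 to -1.29) in cycling and -0.74 in negative barcodes. Antigen presentation genes stood at -1.30 (-1.43 to -1.16) in cycling and -0.95 in negative barcodes. This list includes the mutated genes cd74a and cd74b, whose values are given above, so part of its low value lies in them. It was not summed without them. Heat shock genes stood at -1.11 (-1.19 to -1.04) in cycling and -1.01 in negative barcodes. AP-1 genes stood at -0.88 (-0.99 to -0.77) in cycling and -0.85 in negative barcodes. The glycolysis, antigen presentation, heat shock and AP-1 lists were thus below 0 in negative barcodes as well.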

How the data were processed

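Per the labels, border zone and injured ventricle tissue was dissociated, depleted of dead cells and loaded on 1 lane per library (10x Chromium 3' v3.1). The submitters' processing notes name STARsolo, Scanpy and the danRer11 assembly, and versions are not given in the sources used here. The deposited values are raw counts of UMIs per gene and barcode, with no normalisation by the authors, for 15142 mutant and 4607 wild-type barcodes (22991961 and 7395919 UMIs). Columns of other samples numbered 0.

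Barcodes with more than 300 genes and at most 70% of UMIs in 13 mitochondrial genes were kept (7174 mutant, 3589 wild-type). If exactly 300 genes also passed, 7229 mutant and 3598 wild-type barcodes remained, the numbers the study gives, with 182 and 145 cycling ones. No doublet caller was run and doublets were left in. All 37 mitochondrial genes were left out of the totals behind CPM. Counts were scaled and log transformed, and 2000 variable genes of 9323, without genes of any list, mitochondrial or 80 ribosomal protein genes, gave 12 clusters in scanpy 1.11.5 with igraph 0.11.9 (50 principal components, 15 neighbours, Leiden resolution 1, seed 1), with no correction between libraries. Clusters were named from marker lists. Members and lists were chosen with earlier results of these data known.

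Expected UMIs came from negative barcodes of the same cluster and library, with 0.5 UMI added to each side of a ratio. A gene was called at 2-fold with a 95% Poisson counting interval excluding equality. Shares have Clopper-Pearson intervals. The calculations ran in Python 3.11.15 with numpy 2.4.6, scipy 1.17.1, pandas 2.3.3 and scikit-learn 1.9.0, plots in matplotlib 3.10.9, and the code was tested on simulated data. Genes were named by a rule: the 8 genes, cd74a and cd74b, the 4 genes with most UMIs and the 3 highest (outside the cell cycle also the 2 lowest) of each list, the 20 highest and 10 lowest of all, the 3 top markers of each lineage, and the 5 highest and 5 lowest between libraries, 156 in all. The 20 highest and 10 lowest came from genes with at least 30 UMIs observed or expected in cycling barcodes of both libraries together. Genes that lead clusters are named outside the rule, after their values were seen. Not every gene that the rule names is described. Of the list symbols, 13 were not matched and are not used here. Alternatives covered the filter, the number of genes asked for, thinning, scaling, gene minimum, clustering and depth. A planned count of promoter motifs was not run, as no promoter sequence was at hand.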

Additional observations from a re-analysis of the deposited data

Results flagged for a closer look

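The results named here had opposite directions in the libraries, with both counting intervals clear of equality. The median of all genes tested also differed in sign, at -0.17 in the mutant and 0.07 in the wild-type library. The smaller values below lie near these medians. The difference between the libraries was not tested, since each genotype has 1 library. All values are log2 ratios of observed over expected UMIs in cycling barcodes. Summed glycolysis genes stood at -0.41 in the mutant and 0.16 in the wild-type library, and the glycolytic enzyme gene aldoaa at -0.33 in the mutant and 0.42 in the wild-type library. Summed heat shock genes stood at -0.087 in the mutant and 0.084 in the wild-type library. Among fibroblast markers, col1a1b stood at -0.16 in the mutant and 0.28 in the wild-type library, col1a2 at -0.36 in the mutant and 0.15 in the wild-type library, and postnb at -0.16 in the mutant and 0.40 in the wild-type library. The tropomyosin gene tpm4a stood at -0.76 in the mutant and 0.21 in the wild-type library. The leukocyte marker coro1a stood at -0.49 in the mutant and 0.33 in the wild-type library. The granule peptide gene nkl.1 stood at -3.90 in the mutant library (1 UMI, against 21.9 expected) and 0.97 in the wild-type library, where its 14 UMIs lay in 1 barcode. Without the 2 deepest cycling barcodes of each library, an alternative chosen after seeing the data, the wild-type values were -0.24 (-0.33 to -0.15) for postnb, -0.04 (-0.09 to 0.00) for heat shock genes, 0.07 (-0.02 to 0.16) for col1a2, -0.02 (-0.16 to 0.11) for tpm4a and 0.32 (-0.01 to 0.64) for coro1a. The value of nkl.1 was 1.01 (0.19 to 1.81), still from 14 UMIs in 1 barcode, which the counting interval does not allow for. Values that stayed above equality were 0.19 (0.10 to 0.28) for col1a1b, 0.28 (0.09 to 0.46) for aldoaa and 0.13 (0.06 to 0.19) for glycolysis genes.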

How the results depend on the processing

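No paired analysis was possible because each genotype has 1 library. The mutant share of cycling barcodes was 7.49% with more than 500 genes per barcode, 3.40% at up to 30% mitochondrial UMIs, 10.8% with at least 1 gene, 1.03% with at least 3, 0.572%, 1.88% and 5.24% thinned to 500, 1000 and 2000 UMIs, 2.04% without the 5% deepest barcodes, 3.03% without the unnamed clusters and 1.95% when these were also thinned to 1000 UMIs. The wild-type share was 7.41% with more than 500 genes, 11.4% with at least 1 gene, 2.01% with at least 3, 1.06%, 2.79% and 6.82% thinned to 500, 1000 and 2000 UMIs, 3.23% without the deepest barcodes and 2.80% thinned without unnamed clusters. At each thinned depth the counting intervals of the libraries overlapped. The ratio of shares was 1.01 with more than 500 genes, above 1 only there, 0.826 at up to 30% mitochondrial UMIs and 0.949 with at least 1 gene. The alternatives without unnamed clusters and without the 2 deepest cycling barcodes were chosen after seeing the data. Genes called lower numbered 102 without standardising for cluster (21 shared with the 34), 20 without the 5% deepest barcodes (14 shared) and 20 at Leiden resolution 2. Genes called higher numbered 70 with at least 100 UMIs and 204 with at least 10, and 102 without the deepest barcodes (80 shared with the 135). Mutant over wild-type calls were 74 higher and 69 lower under median scaling. The median of the S phase list ran from 0.35 to 0.93 in the mutant and from 0.73 to 1.42 in the wild-type library, and that of the mitosis list from 2.16 to 3.01 and from 1.96 to 3.46. The 20 highest and 10 lowest genes gave a value per library and alternative, and of these values 609 moved little and 171 moved. Of the list medians, counted in the same way, 178 moved little and 108 moved. With 3 UMIs as the limit, genes under 6.35 CPM in mutant and 7.09 CPM in wild-type cycling barcodes could not be detected.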

Other observations

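Further genes beyond the 20 highest are given here, all chosen after their values were seen, and lbr, lmnb2 and h2ax among them are on the chromatin list. All values are log2 ratios of observed over expected UMIs in cycling barcodes. At the centromere and kinetochore, cenpx had 157 UMIs in mutant cycling barcodes, against 38.3 expected, and 105 against 24.6 in wild-type ones. Its partner cenps stood at 2.04 in the mutant and 2.09 in the wild-type library, and cenpw at 2.58 in the mutant and 2.55 in the wild-type library. The gene spdl1, whose product recruits dynein to kinetochores, stood at 1.91 in the mutant and 3.32 in the wild-type library. At the spindle pole, numa1 stood at 2.02 in the mutant and 3.18 in the wild-type library and nedd1 at 1.69 in the mutant and 2.23 in the wild-type library. The nuclear envelope is taken down and rebuilt in mitosis. Its lamin-binding gene tmpoa stood at 2.22 in the mutant and 2.06 in the wild-type library. The lamin B receptor gene lbr stood at 1.38 in the mutant and 2.81 in the wild-type library, and lmnb2 at 1.24 in the mutant and 1.57 in the wild-type library. Of the pore genes, nup35 stood at 2.02 in the mutant and 2.11 in the wild-type library and nup210 at 1.11 in the mutant and 1.58 in the wild-type library. In the supply of thymidine, dtymk stood at 1.75 in the mutant and 2.60 in the wild-type library and dctd at 1.87 in the mutant and 1.94 in the wild-type library. The replication-independent histone gene h3f3b.1 (identifier ENSDARG00000020504) had 471 UMIs in mutant cycling barcodes, against 130 expected, and 464 against 132 in wild-type ones, and the histone variant gene h2ax stood at 1.68 in the mutant and 1.86 in the wild-type library. The repair gene ube2t stood at 2.27 in the mutant and 2.78 in the wild-type library, and the PCNA-binding gene pclaf at 1.45 in the mutant and 2.67 in the wild-type library. The repressor gene e2f8 stood at 2.54 in the mutant and 2.2 in the wild-type library.

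Further genes called lower were also chosen after their values were seen. The fibronectin gene fn1b had 394 UMIs in mutant cycling barcodes, against 1053 expected, and 443 against 1111 in wild-type ones. The dermatopontin gene dpt stood at -1.52 in the mutant and -1.18 in the wild-type library, the secreted protease gene htra1b at -1.34 in the mutant and -1.58 in the wild-type library, and aebp1, which binds collagen, at -1.18 in the mutant and -1.19 in the wild-type library. The retinol carrier gene rbp4 stood at -1.26 in the mutant and -1.70 in the wild-type library, and the Wnt antagonist gene frzb at -1.99 in the mutant and -1.2 in the wild-type library. Beside the transferrin and ferritin genes, the iron exporter gene slc40a1 stood at -1.83 in the mutant and -1.34 in the wild-type library and the iron reductase gene cybrd1 at -1.70 in the mutant and -1.26 in the wild-type library, at low counts. The Max-binding repressor gene mxi1 stood at -1.59 in the mutant and -1.29 in the wild-type library, and the macrophage scavenger receptor gene marco at -1.30 in the mutant and -1.38 in the wild-type library.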
